A study of Homo sapiens with 12 samples.

Results

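RASSF6 lies on chromosome 4 of hg19 from 74437267 to 74486348 on the minus strand, so its start site is at 74486348 and transcription runs toward lower coordinates. All regions of 10 deposited ChIP-seq lists that overlap chr4:74387000-74537000 were taken, a window of 150 kb around the gene. They number 27 of the 262931 regions in all lists. The SW620 cell line contributed 25 of them and the SW480 cell line 2. The locus was chosen from the H3K27ac lists, because it holds the widest acetylated region that SW620 has and SW480 lacks. Its H3K27ac difference, and those of the marks that accompany it, are therefore given as a description with no test.

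SW480 and SW620 are established human colorectal adenocarcinoma lines, which the labels assign to Dukes' type B and Dukes' type C. Both were grown untreated in DMEM with serum. The labels mention luciferase-transfected cells for injection into mice and do not say whether the profiled cells were of that kind. Each line gave 1 library for each of H3K4me3, H3K4me2, H3K27ac, H3K36me3 and the transcription factor FOXA2, and 1 input. Since each group is 1 library, no difference between the lines has a replicate check and none was tested. A region missing from a list fell below the caller's threshold there, which does not show that the mark was absent.

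RASSF6 encodes a member of the Ras association domain family. These proteins carry a Ras association domain and a SARAH domain, through which several of them bind the MST kinases of the Hippo pathway, and RASSF6 is known as a candidate tumour suppressor that promotes apoptosis. H3K4me3 marks gene starts and H3K4me2 marks gene starts and enhancers. H3K27ac marks those of either kind that are active. H3K36me3 is laid down behind elongating RNA polymerase and so covers the bodies of transcribed genes. FOXA2 is a forkhead pioneer factor of endoderm and liver that binds enhancers in closed as well as accessible chromatin.

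The lists of the lines met at the RASSF6 start and parted over the rest of the gene. Regions of 5 lists covered the start site: H3K4me3 and H3K4me2 of both lines, and H3K27ac of SW620. In SW480 the H3K4me3 region ran from 74485395 to 74486933 (1539 bp) and the H3K4me2 region from 74485230 to 74487042 (1813 bp). These were the 2 SW480 regions of the window. A locus gained in SW620, as the window was named, is thus a statement about which lists hold a region. All H3K27ac, H3K36me3 and FOXA2 regions of SW620 were without an SW480 partner. So were 6 of 7 H3K4me2 and 1 of 2 H3K4me3 regions. Over the whole SW620 lists, 26.8% of H3K27ac, 27.9% of H3K36me3, 30.2% of H3K4me2 and 6.85% of H3K4me3 regions had none. For FOXA2 this is the usual case, since 98.1% of all SW620 peaks had none. Methylated H3K4 at the start was listed in both lines.

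**Figure D1:**
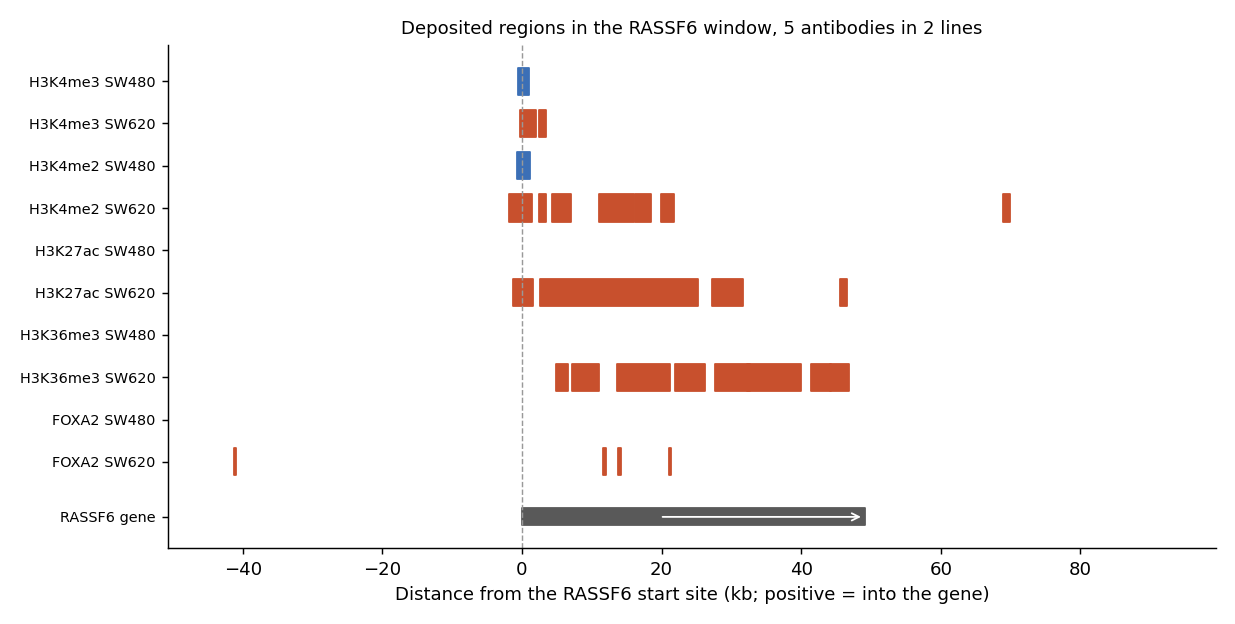
Regions of the 10 deposited lists in the RASSF6 window, 1 row per antibody and line, by distance in kb from the start site, with positive values into the gene; blue is SW480, red is SW620, and regions narrower than 0.4 kb are drawn at that width. SW480 has 1 H3K4me3 and 1 H3K4me2 region, both at the start. SW620 has 25 regions, from a FOXA2 peak 41.1 kb upstream of the start to an H3K4me2 region ending 69.89 kb downstream, past the gene.

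All 5 of these regions extended at least 315 bp upstream and 953 bp downstream of the start site. The RefSeq promoter sequences of RASSF6 are shown because this stretch is the one marked in both lines, and because a forkhead factor was among the antibodies. The table is on build GRCh38.p14, in which RASSF6 has the same length as in hg19, 49082 bp; its positions are not those of the region lists. It gives 2 start sites, 195 bases apart, each with 250 bases before and 50 after the start. The sequences read 5′ to 3′ along the gene's strand, share 105 bases, and have the letters of a forkhead match in capitals. Promoter 1 is chr4:73620582-73620881 and promoter 2 is chr4:73620387-73620686, both minus strand.
RASSF6 promoter 1: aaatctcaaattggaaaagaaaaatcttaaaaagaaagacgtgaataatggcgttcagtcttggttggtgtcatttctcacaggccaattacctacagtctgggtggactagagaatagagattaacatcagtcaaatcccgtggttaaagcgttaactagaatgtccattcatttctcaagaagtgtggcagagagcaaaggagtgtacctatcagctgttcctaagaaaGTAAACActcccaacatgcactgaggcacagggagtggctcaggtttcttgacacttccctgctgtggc
RASSF6 promoter 2: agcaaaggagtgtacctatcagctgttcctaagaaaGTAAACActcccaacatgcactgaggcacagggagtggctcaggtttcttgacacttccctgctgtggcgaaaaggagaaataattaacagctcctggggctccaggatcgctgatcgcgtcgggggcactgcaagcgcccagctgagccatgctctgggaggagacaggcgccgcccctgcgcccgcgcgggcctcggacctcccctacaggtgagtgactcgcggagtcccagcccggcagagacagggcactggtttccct

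The letters TGTTTAC, a form bound by forkhead factors, were searched on both strands. So were TATTTAC, a variant of that form, and a further variant, TGTTTGC. The first form occurs once, as GTAAACA on the gene's strand, at bases 232 to 238 of promoter 1 and at the same stretch, bases 37 to 43, of promoter 2. The other forms do not occur in these windows. Of all 35116 promoters in the table, 3.42% hold TGTTTAC and 9.57% hold any of the 3 forms. The E-box letters CANNTG, which read alike on both strands, occur 1 time in promoter 1 and 3 times in promoter 2, and 68.7% of all promoters hold them. None of these overlaps the forkhead match. No FOXA2 peak of either line lay at the start site, where the promoter match is found. The nearest FOXA2 peak of SW620 was 11.6 kb away and that of SW480 1.36 Mb away.

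At the promoter itself the lines differed in width and in acetylation. The H3K4me3 region over the start was 2325 bp wide in SW620 (74484339 to 74486663), against 1539 bp in SW480, and reached 2009 bp into the gene, against 953 bp. It ended 315 bp upstream of the start, where the SW480 region reached 585 bp upstream. The parts common to both lines made up 82.5% of the SW480 region and 54.6% of the SW620 region. SW620 had a further H3K4me3 region of 1001 bp, the smallest width in that list, inside the gene, from 74482915 to 74483915. Of the 2 SW620 H3K4me3 regions, 1 had no overlap in SW480. Over the whole list, 6.85% of SW620 and 17.1% of SW480 H3K4me3 regions had none. The SW620 H3K4me3 library had 12791745 tags with 52.00% in regions, and the SW480 library 16400013 with 73.03%.

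H3K4me2 over the start was 3307 bp wide in SW620 (74484875 to 74488181), and the SW480 region of 1813 bp lay wholly inside it. H3K27ac covered the start in SW620 alone, from 74484739 to 74487589 (2851 bp). RASSF6 thus had an H3K4me3 region in both lines and promoter acetylation in the SW620 list only. Of 18296 SW480 H3K4me3 regions, 2363 (12.9%) had no H3K27ac in SW480. Of these, 219 overlapped both H3K4me3 and H3K27ac of SW620, which is 9.27% of the 2363 and 1.2% of all. Since acetylation in SW620 alone chose the locus, these shares describe its place and test nothing. The opposite arrangement, H3K4me3 in both lines with acetylation in the SW480 list alone, was found at 1840 of 16315 SW620 H3K4me3 regions (11.3%). The H3K27ac libraries had 34224728 tags with 58.51% in regions in SW480 and 47867295 tags with 27.51% in SW620. The part of these depths in either count was not tested.

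Acetylation continued past the promoter over most of the gene in SW620. The 4 H3K27ac regions of SW620 covered 30.9 kb of the window and 60.4% of the gene, and the SW480 list had none. From the start inward, the promoter region was followed after a gap of 981 bp by the region from 74461127 to 74483757. At 22631 bp it was among the 22 widest of the 22236 regions in the SW620 list. After a further gap of 2.07 kb came a region of 4401 bp (74454659 to 74459059), and then 1 of 1001 bp (74439848 to 74440848) near the 3′ end. The latter had the smallest width in the list. All 4 had no overlap in SW480, against 26.8% of the SW620 list, a share from which nothing is read because this contrast chose the locus.

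Acetylation was concentrated toward the 5′ end of the gene. In the 24541 bp from the midpoint of the gene to its start, SW620 H3K27ac covered 96.0%, and in the 3′ stretch of equal length it covered 24.8%. H3K4me2 was listed in the 5′ stretch alone within the gene, where it covered 58.4% in SW620 and 4.56% in SW480. H3K4me3 followed the same division, with 12.3% of the 5′ stretch in SW620 and 3.89% in SW480 and none of the 3′ stretch in either line.

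**Figure D2:**
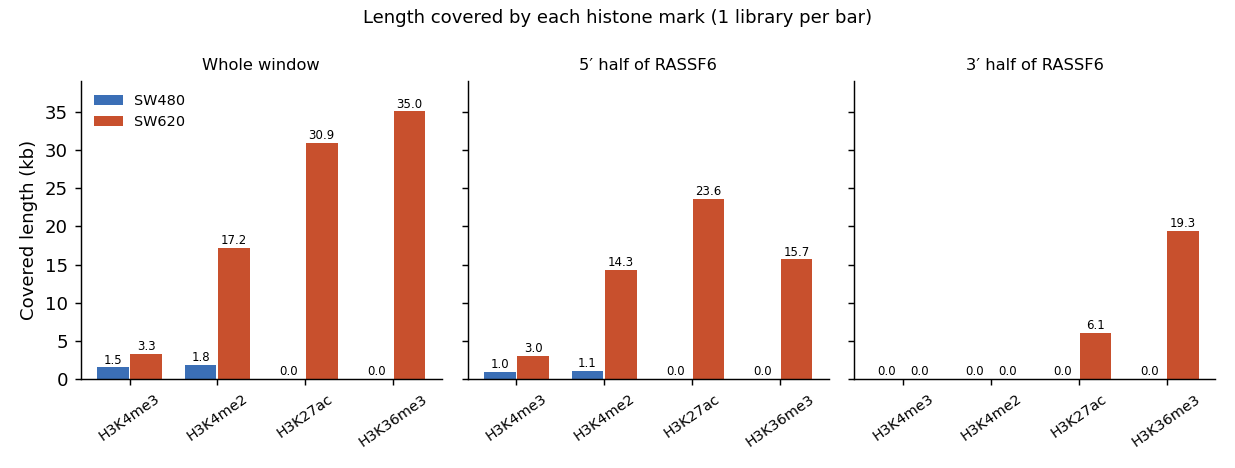
Length in kb covered by each histone mark in the whole RASSF6 window and in the 5′ and 3′ parts of the gene on either side of its midpoint, with SW480 in blue, SW620 in red and 1 library per bar. H3K27ac and H3K36me3 cover 30.9 and 35 kb of the window in SW620 and none in SW480, and the 3′ part carries these 2 marks alone.

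H3K4me2, the mark shared by promoters and enhancers, was listed as separate sites within the acetylated stretch. SW620 had 7 H3K4me2 regions in the window, of which 6 had no overlap in SW480 (30.2% of the SW620 list had none). SW480 had 1, which overlapped SW620, where 23.2% of its list did not overlap. Within the gene and apart from the start, the SW620 regions lay at 74482841 to 74483841, 74479266 to 74482000, 74470357 to 74475371, 74467805 to 74470135 and 74464594 to 74466370. The first of these had the smallest width in the list, 1001 bp, and the widest was 5015 bp. Of the 35114 regions in the list, 1772 (5.05%), itself included, were at least that wide. The gaps between neighbouring sites ran from 221 bp to 3.89 kb. Together they covered 56.4% of the widest acetylated region. The remaining H3K4me2 region, from 74416456 to 74417456, also had the smallest width. It lay downstream of the gene, 47.1 kb from the next, and had no acetylation.

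H3K36me3, the mark of transcribed gene bodies, covered 35 kb of RASSF6 in SW620, or 71.3% of the gene, and was not listed in SW480. None of it lay outside the gene within the window. The 8 regions were 1713 to 7667 bp wide, began 4.88 kb inside the start and ended 2.25 kb before the 3′ end of the gene. From the start inward they lay at 74479754 to 74481466, 74475310 to 74479192, 74465190 to 74472710, 74460195 to 74464359, 74453663 to 74458731, 74446402 to 74454068, 74442090 to 74444924 and 74439522 to 74442258. The last 4 include 2 pairs that overlap each other. All 8 had no overlap in SW480, against 27.9% of the SW620 list. In contrast to H3K27ac, coverage was higher in the 3′ stretch, at 78.8%, than in the 5′ stretch, at 63.8%. The libraries had 37446361 tags in SW480 and 46006580 in SW620, with 32.79% and 35.20% in regions.

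Acetylation and H3K36me3 lay on the same sequence over much of the gene. In SW620, 21.4 kb carried both, which is 72.3% of the acetylated and 61.2% of the H3K36me3-covered length of RASSF6. The 4 histone marks together covered 89.2% of the gene, and 15.6% of it carried H3K27ac, H3K4me2 and H3K36me3 at once. H3K36me3 covered 72.2% of the widest acetylated region. Of all 5966 SW620-only H3K27ac regions, 9.99% had an H3K36me3 share at least as high, and of the 16270 acetylated regions shared with SW480, 1.79% did. These classes were not matched on width: the median was 1519 bp for SW620-only and 2378 bp for shared regions. Nor were they matched on H3K4me3, which 10.6% of SW620-only and 78% of shared regions overlapped. Any H3K36me3 at all was held by 16.7% and 13.8%, in that order.

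FOXA2 was listed at 4 positions in the SW620 window and at none in SW480. All 4 peaks were 319 bp wide as listed. The caller's peak size was 318 bp for that library and 126 bp for SW480 FOXA2. The peak nearest the start, 74474415 to 74474733, was centred 11.8 kb inside the gene. The next, 74472237 to 74472555, was centred 2.18 kb beyond it, 14.0 kb inside. Both fell on the same H3K4me2 region, the widest of the gene. The third, 74464970 to 74465288, was centred 21.2 kb inside the gene on the innermost H3K4me2 region. These 3 all lay in the 22.6 kb acetylated region, in the 5′ part of the gene. The fourth, 74527288 to 74527606, was centred 41.1 kb upstream of the start and touched no histone region of either line, with the closest SW620 acetylation 13.8 kb away.

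Of the 4 FOXA2 peaks, 3 overlapped SW620 H3K4me2, the same 3 overlapped SW620 H3K27ac, 2 overlapped SW620 H3K36me3 and none overlapped H3K4me3. None overlapped any histone region of SW480. When the midpoint of a peak had to lie in the region, 1 overlapped H3K36me3. The 22236 SW620 H3K27ac regions held 4215 FOXA2 peaks in all, in a list of 12372. Whole-list counts on the other marks were not computed. Since the locus was chosen on acetylation, nothing is read from these overlaps. In the order of the deposited list the 4 peaks of the window stood at places 4038, 2893, 10201 and 6784, in the order described above. The meaning of that order was not stated. All 4 had no overlap in SW480, but so did 98.1% of the SW620 list. Of 14815 genome windows of the same length, 70.6% held no SW480 FOXA2 peak, so an empty SW480 window is the common case. The FOXA2 libraries had 19473583 tags with 0.59% in peaks in SW480 and 18036456 tags with 2.25% in SW620.

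Among the 5966 SW620-only H3K27ac regions, 4373 held no FOXA2 peak of SW620, 1544 held 1 and 45 held 2. The widest RASSF6 region was 1 of 4 (0.067%) with 3 peaks. Median width rose with the number of peaks: 1319, 1834, 3651 and 6859 bp for 0, 1, 2 and 3. The RASSF6 region held 1.33 peaks per 10 kb, against 1.48 over all SW620-only regions. The rate was 0.928 over the 13 SW620-only regions at least 10 kb wide, itself included. Over acetylated regions shared with SW480 it was 0.57. Its density of FOXA2 peaks was thus below the rate of all SW620-only regions and above that of the wide ones. The other 3 regions with 3 peaks were chosen for mention after their values were seen. On chromosome 10 they lay at 60720585 to 60727777 and 72561137 to 72567661. The remaining one lay on chromosome 4 at 74680462 to 74684966, on the 5′ side of RASSF6 and outside its window.

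**Figure D3:**
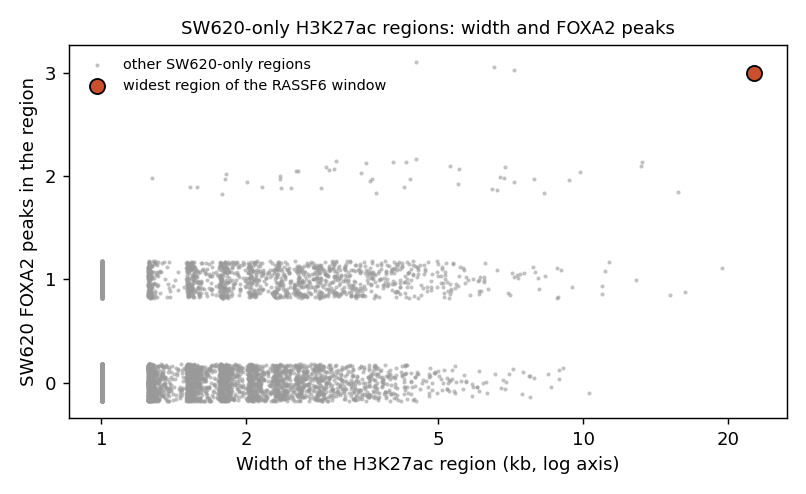
Each of the 5966 SW620-only H3K27ac regions by width (kb, log axis) and number of SW620 FOXA2 peaks, with points spread vertically for visibility; the large point is the widest region of the RASSF6 window. It is the widest of all and 1 of 4 with 3 peaks.

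The 5 SW620-only H3K27ac regions next in width were compared for what they carried. They were 13.2 to 19.4 kb wide, lay on chromosomes 12, 10 and 9, and held 1 or 2 FOXA2 peaks of SW620 each. H3K36me3 covered 0% of 4 of them. In the fifth, on chromosome 9 from 97815300 to 97828536, it covered 86.8%, and SW480 also had 3 H3K36me3 regions there. The RASSF6 region was thus the only one of these 6 widest that carried H3K36me3 in SW620 without any in SW480. H3K4me2 covered between 19.5% and 100% of the 5, with 56.4% at RASSF6.

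In the 500 kb beyond the window, 15 of 51 SW620 histone regions on the 3′ side of RASSF6 had no SW480 partner. On the 5′ side 16 of 32 had none. Over the whole SW620 lists the share was 6.85% to 30.2%, depending on the mark. The marks differed, mostly H3K36me3 on the 3′ side and mostly H3K27ac on the 5′ side. By gene order in the RefSeq table the protein-coding neighbours are AFM, AFP and ALB, which encode plasma proteins of the liver, on the 3′ side, followed by ANKRD17. On the 5′ side they are CXCL8 and CXCL6, which encode chemokines. The nearest region outside the window on the 5′ side was a SW620 H3K27ac region from 74541369 to 74543393, 4.37 kb beyond the edge. On the 3′ side the nearest were 260 kb beyond it, and there the lines matched, with H3K4me2 from 74122902 to 74126982 in SW480 and from 74122844 to 74126964 in SW620. Between these and the window neither line had a region of any antibody.

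In the 500 kb on the 3′ side, 41 of 42 SW480 and 36 of 51 SW620 histone regions overlapped the other line, and neither line had a FOXA2 peak. In the 500 kb on the 5′ side, all 16 SW480 histone regions overlapped SW620, and 16 of 32 SW620 regions overlapped SW480. Over both flanks 57 of the 58 SW480 histone regions overlapped SW620. Over the whole SW480 lists, 17.1% of H3K4me3 and 23.2% of H3K4me2 regions had no overlap in SW620. For SW480 H3K27ac and H3K36me3 that share was not computed. On the 5′ side, 10 of 15 H3K27ac, 4 of 9 H3K4me2, 1 of 6 H3K4me3 and 1 of 2 H3K36me3 regions of SW620 had no overlap in SW480. On the 3′ side the counts were 2 of 4, 2 of 4, 1 of 3 and 10 of 40, in the same order of marks. Over the whole SW620 lists the shares were 26.8%, 30.2%, 6.85% and 27.9%. H3K27ac covered 36.7 kb of the 5′ flank in SW620 and 11.0 kb in SW480, and 9.97 and 6.68 kb of the 3′ flank.

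**Figure D4:**
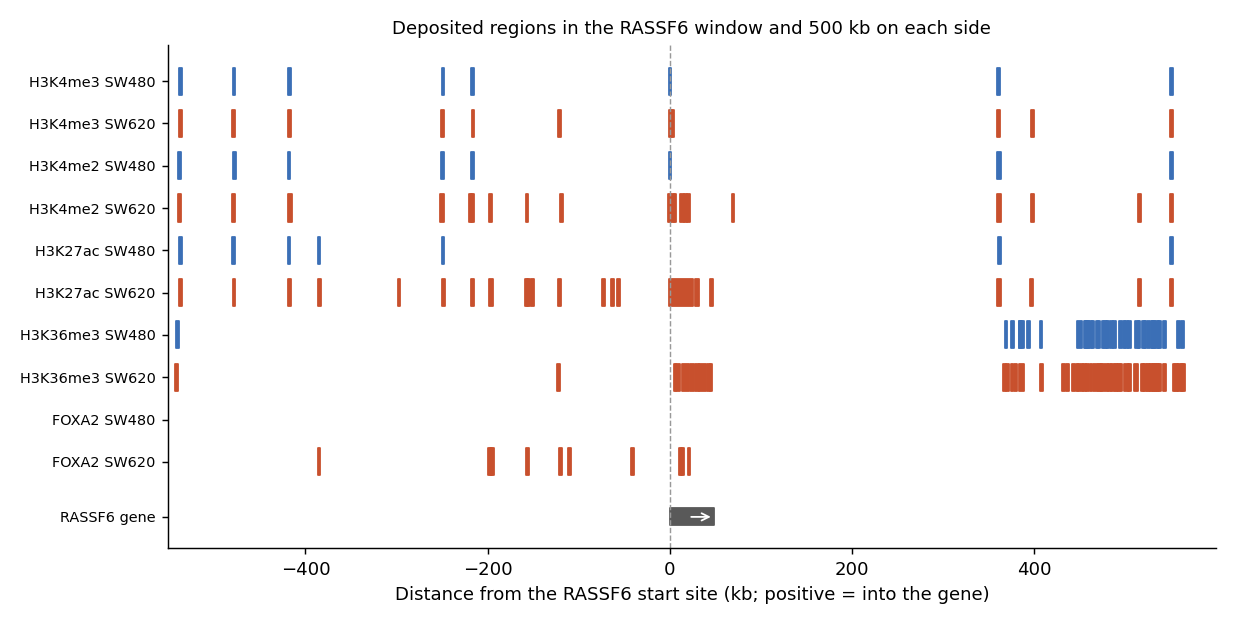
Regions of the 10 lists in the RASSF6 window and the 500 kb on each side, by distance in kb from the start site, with positive values into and past the gene; blue is SW480, red is SW620, and regions narrower than 3 kb are drawn at that width. SW620 has 10 H3K27ac regions without an SW480 partner on the 5′ side (left), and most H3K36me3 regions of the 3′ side (right) are listed in both lines, 30 of 40 for SW620.

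SW620 had 7 further FOXA2 peaks in the 500 kb on the 5′ side, and SW480 had none there. A SW620 peak without an SW480 partner is the usual case, at 98.1% of the list. Of these 7, 6 overlapped SW620 H3K27ac, 1 overlapped H3K4me2 and 1 overlapped H3K4me3. In the whole list of 12372 peaks, SW620 H3K27ac regions held 4215. The 7 peaks lay 110, 120, 156, 195, 196, 198 and 385 kb upstream of the RASSF6 start. The peaks at 120, 156, 195 and 198 kb missed SW620 H3K4me2 by 495, 275, 866 and 87 bp. The peaks at 195, 196 and 198 kb shared 1 acetylated region of 4505 bp, the one named above. The peak at 120 kb (74606209 to 74606527) lay on acetylation from 74605555 to 74609421 that also carried a SW620 H3K4me3 region of 2493 bp and a SW620 H3K36me3 region of 1001 bp, none of which SW480 had. At 385 kb the acetylation under the peak was listed in SW480 as well. By gene order CXCL8 and CXCL6 lie on this side, and the sites were not placed relative to these genes. Which gene any of these sites acts on was not tested.

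The RASSF6 window was set against 14815 windows of the same length, tiled along each chromosome and holding a region in at least 1 list. Their median difference between the lines was 0 for each antibody, and for H3K27ac the 5th and the 95th percentile of the difference, SW620 minus SW480, were -6.39 and 4.05 kb. The H3K27ac difference at RASSF6, 30.9 kb, was reached by 0.101% of windows. The H3K36me3 difference of 35 kb was reached by 0.371%, the H3K4me2 difference of 15.4 kb by 0.324%, the H3K4me3 difference of 1.79 kb by 2.2% and the difference of 4 FOXA2 peaks by 3.03%. Because the locus was picked for being extreme, these shares describe its place and test nothing. H3K27ac covered more length in SW480 than in SW620 in 43.1% of windows and less in 23.3%, so the RASSF6 difference ran against the more frequent direction in that mark, as it did in H3K4me3 (40.9% and 19.7%) and H3K36me3 (26.2% and 21%). For H3K4me2 and FOXA2 it ran with it: SW620 was higher in 45% and 40.8% of windows and SW480 in 37.2% and 18.7%.

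**Figure D5:**
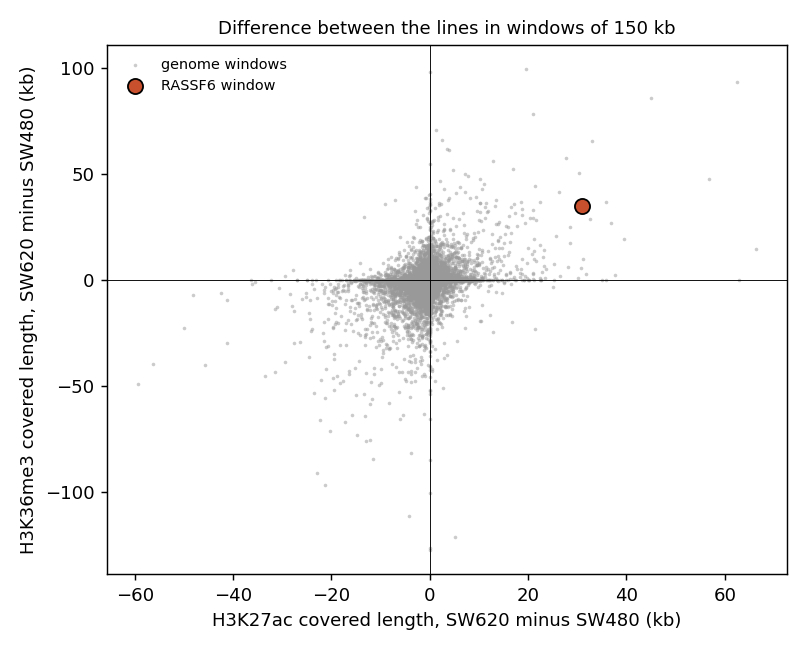
Difference between SW620 and SW480 in length covered by H3K27ac (x axis, kb) and H3K36me3 (y axis, kb) in 14815 genome windows of 150 kb (grey) and the RASSF6 window (red). The RASSF6 window, at 30.9 and 35 kb, lies far from the mass of windows around 0 on both axes.

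Only 3 windows (0.0202%) reached the RASSF6 differences in H3K4me2, H3K27ac and H3K36me3 together. One ran from 81000541 to 81150541 on chromosome 15, another from 240151602 to 240301602 on chromosome 2 and the last from 2550018 to 2700018 on chromosome 7; they are named because of their values. In all 3, in that order, SW480 had H3K27ac already, at 13.1, 36.3 and 20.9 kb, and H3K36me3, at 18.6, 8.55 and 30.1 kb, where it had 0 kb at RASSF6. Windows were also ranked by the excess of SW620 over SW480 in each of the 4 histone marks, and each window was given its worst rank. The 5 windows that led this order had worst ranks of 19 to 92, against 327 for RASSF6, whose worst rank was that in H3K4me3 and whose rank in H3K27ac was 16. This order picks a high excess in every mark and not likeness to RASSF6. These 5 lay on chromosomes 2, 20, 17, 5 and 3, and SW480 had all 4 marks in each of them. They included the window on chromosome 2 above and 62700419 to 62850419 on chromosome 20, where H3K27ac covered 5.41 kb in SW480 and 31.7 kb in SW620.

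The arrangement at RASSF6, H3K4me3 in both lines with H3K27ac and H3K36me3 in SW620 alone, was then counted over all windows, a count added after the data were seen. Of 8822 windows with H3K4me3 in SW480, 788 had neither H3K27ac nor H3K36me3 in SW480. Of these 788, 17 (2.16%, or 0.193% of the 8822) held H3K4me3, H3K27ac and H3K36me3 in SW620. The locus was chosen on acetylation in SW620 alone, so these shares test nothing about it. In these 17 the SW620 H3K27ac length had a median of 3.02 kb and a highest value of 23.1 kb, against 30.9 kb at RASSF6. Their H3K36me3 length had a median of 2.76 kb and a highest value of 46.7 kb, against 35 kb. The one with the most acetylation, on chromosome 16 from 52500351 to 52650351, held 9 FOXA2 peaks in SW620 and none in SW480.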

How the data were processed

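ChIP-seq was carried out on SW480 and SW620 with 5 antibodies and an input each, so that 12 samples form 12 groups of 1 library. Titles gave the groups. Per the file headers, the authors ran HOMER findPeaks on each library with the line's own input as control. The histone style used regions of 1000 bp at least 4-fold above input and surroundings, the factor style for FOXA2 at least 2-fold, and both a false discovery rate of 0.001. The submitters' processing notes name hg19. The aligner and HOMER's version were not stated in them. The deposited score was 1 in every row, so only positions were used and no signal strength could be compared. Total tags per library lay between 12791745 and 47867295, per the file headers.

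Positions are counted from 1. A region belonged to the window, and counted as overlapping, from 1 bp on. Overlapping regions of a list were merged before covered lengths were summed. Genome windows had the length of the RASSF6 window and left out those that touch it; FOXA2 peaks were assigned to them by their midpoint. Named windows were the 5 with the best worst rank in SW620 excess over the 4 histone marks, and named regions the 5 SW620-only H3K27ac regions next in width. Python 3.11.15, numpy 2.4.6 and matplotlib 3.10.9 were used, the members were checked with bedtools 2.31.1, and the interval functions were checked on simulated regions. The gene, the window and the comparisons were chosen with earlier results of these data known. Promoter sequences and neighbouring genes came from RefSeq (GRCh38.p14), where 1 gene symbol, RASSF6, matched 2 promoters. The sequences under the FOXA2 peaks, other RASSF and Hippo pathway genes, and expression were not analysed here, and the inputs were not used beyond the authors' calling.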

Additional observations from a re-analysis of the deposited data

How the results depend on the processing

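The results were recomputed with 92 alternatives covering the overlap rule, the window, joined regions, the peak midpoint, the tiling and the margin for SW620-only regions. In 85 the value stayed within 1.5 times the reported one, with 0 against 0 counted as unchanged. Requiring 50% of a region inside could move no count, since every region lay wholly in the window. With the gene span alone, SW480 H3K4me3 covered 0.954 kb and SW480 H3K4me2 1.12 kb, since these regions reach past the start. With the window widened by 50 kb on each side, SW620 had 7 H3K27ac regions in place of 4 and SW480 still none. With regions up to 1 kb apart joined, SW620 had 1 H3K4me3 region in place of 2 and 4 H3K36me3 regions in place of 8. The same joining left 5 H3K4me2 regions in place of 7 and 3 H3K27ac regions in place of 4, both within 1.5 times. By midpoint, 1 FOXA2 peak in place of 2 lay on SW620 H3K36me3. Among windows with H3K27ac in at least 1 line, 0.152% reached the RASSF6 difference in H3K27ac, against 0.101% of all. No paired analysis was possible because each group has 1 library and no test was made. A call depends on depth and on the share of tags in regions, which differed between the lines, and without signal values a weak region cannot be told apart from none.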
